A study of Homo sapiens with 8 samples.

Results

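Haem synthesis and iron handling were followed through 36 genes that make haem, carry iron and porphyrins, sense and store iron, or break haem down. The genes come from a list of names set by function, drawn up with earlier results of these data known, and 34 of the 36 were measured among the 19775 genes of the arrays. FTH1, the ferritin heavy chain, and IREB2, an iron sensor, were not analysed here. RNA was measured on microarrays in K562, an established human line of chronic myeloid leukaemia origin that keeps erythroid features. The cells of both groups stably carried p42-C/EBPa-ER, a fusion of the granulocytic transcription factor C/EBPα with the oestrogen receptor that moves into the nucleus when estradiol is added. The medium held no phenol red, and its serum was stripped with charcoal. The treated group is 4 samples given 1 µM beta-estradiol for 6 h, and the control group is 4 samples given ethanol vehicle for 6 h. The sources used here do not say whether the cells are 1 clone. The labels name no group that lacks the fusion, so an effect of estradiol by itself cannot be told apart from that of the fusion.

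Haem is made in a relay that starts and ends in the mitochondrion. ALAS enzymes join glycine to a succinyl unit, cytosolic enzymes build the porphyrin ring, and FECH inserts iron into it. Developing red cells take up iron bound to transferrin, reduce it in endosomes, import it into mitochondria, and store any excess in ferritin. The iron regulatory proteins ACO1 and IREB2 bind iron-responsive elements, short RNA hairpins that control translation or stability of iron genes.

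After estradiol RNA was lower for every measured haem enzyme from UROS to FECH and for most mitochondrial and porphyrin carriers, while the transferrin receptors did not pass the test. Values are log2 expression levels, and a gene was called when its Benjamini-Hochberg adjusted p over all 19775 genes was below 0.05 in limma. Of the 34 measured genes 16 fell (47.1%, against 9.60% of all genes), 3 rose (8.82%, against 8.29%), and 15 were not called. In all, 17.9% of genes were called. That share depends on brightness, and 33 of the 34 genes passed either of 2 filters on dim genes. With a mean log2 level of at least 5, 32.0% of 12949 genes were called, 2232 of them lower. At or above the median level of all genes, 43.2% of 9888 were called, 2267 of them lower. Under either filter 16 of the 33 fell and 5 rose. With median centring of the arrays 10 of the 34 fell, and the calls of UROD, FECH, SLC25A38, SLC25A39, GLRX5 and BLVRB were lost. Of the 5 enzymes that had fallen 3 kept their call, and of the 6 carriers that had fallen 4 did. The mitochondrial iron importer SLC25A37 and the endosomal iron reductase STEAP3 fell furthest, and the ferritin receptor NCOA4 rose furthest. All 4 estradiol values lay below all 4 vehicle values in 16 of the 34 and in 12.9% of all genes. These 16 were the genes that fell, and call and pattern come from the same arrays. The opposite pattern, all estradiol values above, was seen in 5 of the 34 and in 11.1% of all genes. Both patterns together made up 24.1% of all genes. The median change was −0.14 over the 34 genes and −0.03 over all genes. In bulk RNA, fewer cells of a kind and less RNA per cell cannot be told apart.

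**Figure D1:**
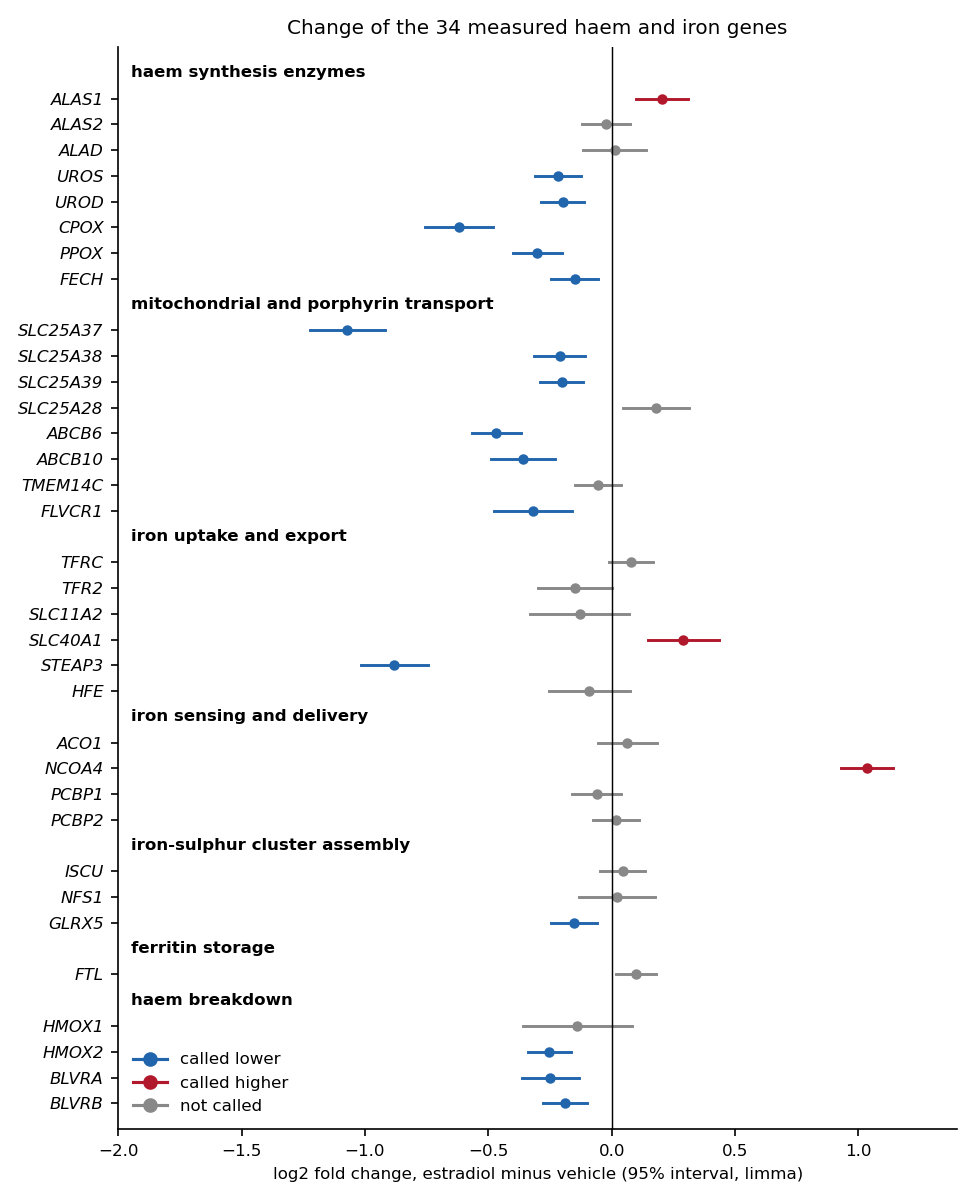
Log2 fold change of each of the 34 measured genes (estradiol minus vehicle, dots) with its 95% interval from limma (lines), grouped by role, blue for genes called lower, red for genes called higher and grey for genes not called. SLC25A37 (−1.07), STEAP3 (−0.88) and CPOX (−0.62) lie furthest to the left and NCOA4 (1.03) furthest to the right.

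The arrays resembled each other in scale, with medians from 4.97 to 5.08. Vehicle replicate 2 had the lowest value of its group for 22 of the 34 genes, and its median difference from the vehicle mean over these genes was −0.06, against 0.00 to 0.02 in the other vehicle arrays and −0.17 to −0.13 in the estradiol arrays. Without it the same 19 genes were called. Over all genes the median difference of vehicle replicate 2 from the vehicle mean was −0.03, against 0.00 to 0.01 in the other vehicle arrays. Estradiol replicate 1 had the lowest array median, 4.97, and a median difference over all genes of −0.05. All 6 measured markers of erythroid character in K562 lay above the array medians, a list that holds GATA1 and KLF1, and their mean ran from 10.98 to 11.04 with vehicle and from 10.68 to 10.72 with estradiol. Lying above the medians was not limited to that list. It held for 3 of 7 measured markers of other blood cells and 3 of 4 of other tissues. The mean of the 7 markers of other blood cells was 4.91 to 4.97 with vehicle and 4.79 to 4.97 with estradiol. That of 4 markers of other tissues was 5.43 to 5.63 and 5.41 to 5.58. The part of the erythroid markers in the changes described here was not tested.

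Among the 8 haem synthesis enzymes 5 fell (62.5%, against 9.60% of all genes), 1 rose (12.5%, against 8.29%) and 2 were not called. The falls were at UROS, UROD, CPOX, PPOX and FECH, which form the later steps, and the rise was at ALAS1, the housekeeping enzyme of the first step. CPOX, which makes protoporphyrinogen in the mitochondrial intermembrane space, had the largest fall. Its log2 levels were 8.89, 8.94, 8.96 and 8.98 with estradiol and 9.58, 9.40, 9.60 and 9.66 with vehicle. The groups were separated by a wide gap, with vehicle replicate 2 the lowest control. CPOX fell 1.54-fold (log2 fold change −0.62 ± 0.06 SE, limma adjusted p = 0.000123).

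The enzyme that follows it, PPOX, which oxidises protoporphyrinogen to protoporphyrin, read 9.11, 9.12, 9.08 and 9.06 with estradiol and 9.47, 9.33, 9.38 and 9.41 with vehicle. No estradiol value reached the lowest control, and PPOX fell 1.23-fold (−0.30 ± 0.04, limma adjusted p = 0.00132). Of its 3 probe sets 2 were called lower when every probe set was tested on its own, at −0.30 and −0.46. FECH, ferrochelatase, was 9.14, 9.13, 9.11 and 9.11 with estradiol and 9.28, 9.20, 9.29 and 9.32 with vehicle. The FECH groups did not overlap, but the gap was narrow and the change small (−0.15 ± 0.04, limma adjusted p = 0.0352). The FECH call was lost without any 1 array other than vehicle replicate 2 (adjusted p from 0.0615 to 0.108), with median centring of the arrays (0.229), and when adjusted over every probe set (0.0907).

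Of the ring-building enzymes, UROS, which closes the ring as uroporphyrinogen III, read 7.68, 7.75, 7.74 and 7.64 with estradiol and 7.92, 7.90, 7.91 and 7.93 with vehicle. The controls lay almost on each other, and UROS fell by 0.22 ± 0.04 on the log2 scale (limma adjusted p = 0.00552). With its probe set of the largest SD the change was −0.26 and the call was lost (adjusted p = 0.101). UROD, which trims the side chains of the ring, had means of 12.41 ± 0.03 (SD, n = 4) after estradiol and 12.61 ± 0.03 in the controls, a change of −0.20 ± 0.04 (limma adjusted p = 0.00675). The size of the UROD change depended on the probe set. All 3 probe sets were called lower, at −0.20, −0.24 and −1.03, and the mean of the 3 changed by −0.49. The probe set at −1.03 was the dimmest of them, with a mean level of 7.01. With median centring of the arrays the UROD call was lost (adjusted p = 0.0735). ALAD, the enzyme of the second step, differed by 0.01 (95% interval −0.11 to 0.14, limma adjusted p = 0.918).

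The enzymes of the first step had different values. ALAS1 read 9.04, 8.94, 9.03 and 8.99 with estradiol and 8.81, 8.72, 8.80 and 8.86 with vehicle. Every estradiol value was above every control, and ALAS1 rose 1.15-fold (0.20 ± 0.05, limma adjusted p = 0.0148). ALAS2, its erythroid relative, was 8.24, 8.34, 8.34 and 8.30 against 8.33, 8.29, 8.37 and 8.33. The ALAS2 groups overlapped, with a difference of −0.02 (95% interval −0.12 to 0.07, limma adjusted p = 0.796). The change of ALAS1 minus that of ALAS2 was 0.23, and the difference between the genes was 0.60 to 0.79 on the estradiol arrays and 0.43 to 0.53 on the vehicle arrays. In a two-sided exact permutation test of the 8 arrays this gave p = 0.0286, the smallest that 4 against 4 allow, or 0.0714 after Benjamini-Hochberg adjustment over 5 pairs of related genes, which were chosen after the values had been seen.

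**Figure D2:**
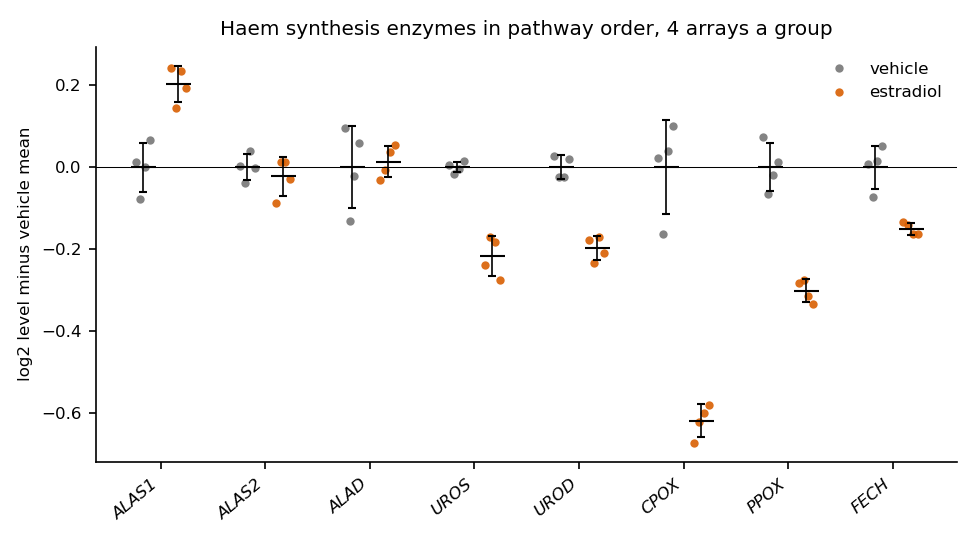
Log2 level minus the vehicle mean of the gene (vertical axis) for the 8 haem synthesis enzymes in pathway order, grey points for the 4 vehicle arrays and orange points for the 4 estradiol arrays, with the mean and SD of each group in black. The estradiol points of ALAS1 lie above the controls, those of ALAS2 and ALAD among them, and those of UROS, UROD, CPOX, PPOX and FECH below them.

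The promoters of CPOX, PPOX and ALAS2 are shown because they hold the letters of the GATA motif, while CPOX and PPOX fell and ALAS2 was not called. GATA1, the erythroid master regulator that binds this motif, also fell, and whether it acted on these genes was not tested. Each line gives the 250 bases before the start in RefSeq (GRCh38.p14), 5′ to 3′ on the strand of the gene. The CPOX sequence is at chr3:98593612-98593861 on the minus strand, that of PPOX, from 1 of its annotated starts, at chr1:161166396-161166645 on the plus strand, and that of ALAS2 at chrX:55030978-55031227 on the minus strand. Capitals mark TTATCT, the reverse complement of AGATAA.
CPOX: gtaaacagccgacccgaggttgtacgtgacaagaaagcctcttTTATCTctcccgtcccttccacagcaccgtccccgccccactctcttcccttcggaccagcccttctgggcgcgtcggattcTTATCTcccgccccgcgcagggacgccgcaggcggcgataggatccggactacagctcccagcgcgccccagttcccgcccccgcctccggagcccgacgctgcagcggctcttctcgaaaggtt
PPOX: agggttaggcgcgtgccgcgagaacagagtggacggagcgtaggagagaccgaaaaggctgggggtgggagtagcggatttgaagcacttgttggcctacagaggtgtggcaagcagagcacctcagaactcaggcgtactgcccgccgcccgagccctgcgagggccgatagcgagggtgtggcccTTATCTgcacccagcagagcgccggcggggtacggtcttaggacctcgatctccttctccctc
ALAS2: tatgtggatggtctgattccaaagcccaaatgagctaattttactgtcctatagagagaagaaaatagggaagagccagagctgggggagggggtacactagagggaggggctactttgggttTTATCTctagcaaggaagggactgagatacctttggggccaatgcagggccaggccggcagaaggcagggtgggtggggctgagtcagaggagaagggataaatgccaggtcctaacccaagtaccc

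CPOX holds 2 copies, with first bases 207 and 125 bases before the start, PPOX holds 1 at 63 and ALAS2 holds 1 at 127. Promoter windows of 300 bases, 250 before the start and 50 from it on, were matched by symbol for 30 of the 34 genes, in 37 windows. AGATAA or TGATAA, on either strand, was present in 4 of the 37 windows (10.8%), and in 16.3% of 35116 windows of the table. The fourth window was that of SLC11A2, which was not called. Among the 16 windows of genes that fell 2 held it (12.5%), a share below that of the table. The C/EBP motif TTGCNNAA, on either strand, was present in 1 window, that of TMEM14C, against 10.5% of the table. The antioxidant response element TGANNNNGC, on either strand, which overlaps the E-box described later in ABCB6, was present in 14 of the 37 windows (37.8%) and in 41.8% of the table. A match describes letters only and no binding was measured.

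Of the 8 carriers of iron, porphyrins, haem and mitochondrial metabolites 6 fell (75%, against 9.60% of all genes), 0 rose (against 8.29%) and 2 were not called. SLC25A37, mitoferrin-1, which imports iron for haem synthesis in erythroid cells, read 8.52, 8.64, 8.39 and 8.54 with estradiol and 9.72, 9.52, 9.51 and 9.63 with vehicle. The groups lay well apart in a 2.10-fold fall (−1.07 ± 0.07, limma adjusted p = 8.05e-06). Of its 10 probe sets 9 were called lower, and the tenth differed by −0.31. SLC25A28, mitoferrin-2, the importer found in most tissues, was 7.46, 7.52, 7.37 and 7.59 with estradiol and 7.33, 7.25, 7.26 and 7.39 with vehicle. Estradiol replicate 3 lay within the control range, and the difference of 0.18 ± 0.06 did not pass the test (95% interval 0.05 to 0.31, limma adjusted p = 0.0685). It passed in 5 of 20 other settings, among them the fit without estradiol replicate 3 (0.22, adjusted p = 0.0386). The change of SLC25A37 minus that of SLC25A28 was −1.25, with a difference between the genes of 0.96 to 1.11 on estradiol arrays and 2.24 to 2.39 on vehicle arrays. Its exact permutation p was 0.0286, again the smallest possible, and 0.0714 over the 5 pairs. The other pairs had exact p of 0.0571 for PCBP1 and PCBP2, 0.0857 for TFRC and TFR2 and 0.343 for HMOX1 and HMOX2 (0.0952, 0.107 and 0.343 adjusted).

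The ABC transporters of this group fell as well. ABCB6, a transporter linked to porphyrins, read 8.33, 8.37, 8.36 and 8.33 with estradiol and 8.88, 8.74, 8.85 and 8.79 with vehicle. No values overlapped, and ABCB6 fell 1.38-fold (−0.47 ± 0.04, limma adjusted p = 1.00e-04). A second, dim probe set with a mean level of 4.73 differed by 0.03, and the mean of both changed by −0.22. ABCB10, a mitochondrial inner membrane transporter that stabilises mitoferrin-1, was 10.27, 10.04, 10.13 and 10.22 with estradiol and 10.52, 10.46, 10.55 and 10.57 with vehicle. The estradiol arrays scattered more than the controls, yet all lay below them, and ABCB10 fell 1.28-fold (−0.36 ± 0.06, limma adjusted p = 0.00220).

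The amino acid and thiol carriers moved less. SLC25A38, which brings glycine into mitochondria for the first step of haem synthesis, read 8.63, 8.65, 8.64 and 8.64 with estradiol and 8.94, 8.86, 8.79 and 8.80 with vehicle, a change of −0.21 ± 0.05 (limma adjusted p = 0.0104). SLC25A39, an importer of glutathione, read 9.88, 9.87, 9.89 and 9.85 with estradiol and 10.04, 10.05, 10.12 and 10.09 with vehicle, a change of −0.20 ± 0.04 (limma adjusted p = 0.00567). In both genes the estradiol arrays lay close together below all controls. With median centring of the arrays both calls were lost, at adjusted p of 0.0709 and 0.0549. TMEM14C, needed for the import of protoporphyrinogen, differed by −0.06 (95% interval −0.15 to 0.04) without passing the test.

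FLVCR1, an exporter of haem in red cell precursors, read 8.49, 8.43, 8.50 and 8.55 with estradiol and 8.94, 8.62, 8.81 and 8.87 with vehicle. Vehicle replicate 2 again lay nearest to the estradiol arrays. FLVCR1 fell 1.25-fold (−0.32 ± 0.07, limma adjusted p = 0.0114), on 1 of its 2 probe sets. The other differed by 0.01 at a mean level of 8.16, and with the mean of both the call was lost (−0.16, adjusted p = 0.205).

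Of the genes that fell, ABCB6, SLC25A38 and HMOX2 have the E-box CACGTG, the motif bound by MYC and MAX among other factors, in the promoter window. These sites are shown because MYC was among the regulators that fell. The 30 bases around each, with the motif in capitals, lie at chr2:219219097-219219126 on the minus strand for ABCB6, chr3:39383314-39383343 on the plus strand for SLC25A38 and chr16:4474696-4474725 on the plus strand for HMOX2 (RefSeq, GRCh38.p14).
ABCB6: tcccgccctgggCACGTGaccaagccggct
SLC25A38: tcagaacaccctCACGTGacaagcgtccca
HMOX2: gcccgccccaggCACGTGcacagtgagttt
The motif reads the same on both strands. It was present in 3 of the 16 windows of genes that fell (18.8%), in 4 of all 37 windows, with TMEM14C as the fourth, and in 7.26% of the table. These are few windows, of genes chosen with earlier results known. Whether MYC acted on these genes was not tested.

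Iron uptake and export gave 1 fall (16.7%, against 9.60% of all genes) and 1 rise (16.7%, against 8.29%) among 6 genes. STEAP3, the reductase that turns ferric into ferrous iron in endosomes, read 7.75, 7.72, 7.61 and 7.66 with estradiol and 8.57, 8.67, 8.43 and 8.59 with vehicle. The groups lay far apart, and STEAP3 fell 1.84-fold (−0.88 ± 0.06, limma adjusted p = 1.24e-05). Both probe sets of STEAP3 were called lower, at −0.88 and −0.73. SLC40A1, ferroportin, the exporter of iron from cells, read 9.49, 9.34, 9.39 and 9.36 with estradiol and 9.24, 8.97, 9.11 and 9.11 with vehicle. All estradiol arrays exceeded the highest control, and SLC40A1 rose 1.22-fold (0.29 ± 0.06, limma adjusted p = 0.0112). Its dimmer probe set differed by 0.27 and was not called on its own (adjusted p = 0.259).

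TFRC, the transferrin receptor, read 13.08, 13.10, 13.06 and 13.09 with estradiol and 12.95, 13.00, 13.05 and 13.02 with vehicle. The lowest estradiol value lay just above the highest control, and the difference of 0.08 (95% interval −0.01 to 0.17) did not pass the test (limma adjusted p = 0.243). A variance trend with a robust fit called it (adjusted p = 0.00669). TFR2, a relative that senses transferrin, differed by −0.15 (95% interval −0.30 to 0.00). SLC11A2, the ferrous iron transporter DMT1, differed by −0.13 (−0.33 to 0.07), although 1 of its 5 probe sets, not the brightest, was called lower on its own (−0.24). HFE, a regulator of iron uptake, differed by −0.09 (−0.25 to 0.07), and none of its 15 probe sets was called.

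In the group that senses and delivers iron NCOA4 was the single gene called of 4 measured (25%, against 17.9% of all genes). NCOA4, the receptor that carries ferritin to autophagosomes so that its iron is released, read 12.79, 12.74, 12.72 and 12.74 with estradiol and 11.79, 11.64, 11.68 and 11.75 with vehicle. The groups lay about as far apart as those of SLC25A37, in the opposite direction. NCOA4 rose 2.05-fold (1.03 ± 0.05, limma adjusted p = 1.08e-06), on its only probe set. ACO1 differed by 0.06 (95% interval −0.06 to 0.18), and the iron chaperones PCBP1 and PCBP2 by −0.06 (−0.16 to 0.04) and 0.02 (−0.08 to 0.11).

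FTL, the ferritin light chain, read 13.86, 13.85, 13.82 and 13.82 with estradiol and 13.74, 13.75, 13.74 and 13.73 with vehicle. The groups did not overlap, but the difference of 0.10 (95% interval 0.02 to 0.18) did not pass the test (limma adjusted p = 0.106). FTL was called with either filter on dim genes (adjusted p = 0.0376 and 0.0199) and with a variance trend and a robust fit (3.89e-05). Its values lay near the top of the table, which ended at 14.39, and whether the signal was saturated was not tested. Ferritin genes have processed pseudogenes, so the signal may include near-identical copies.

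**Figure D3:**
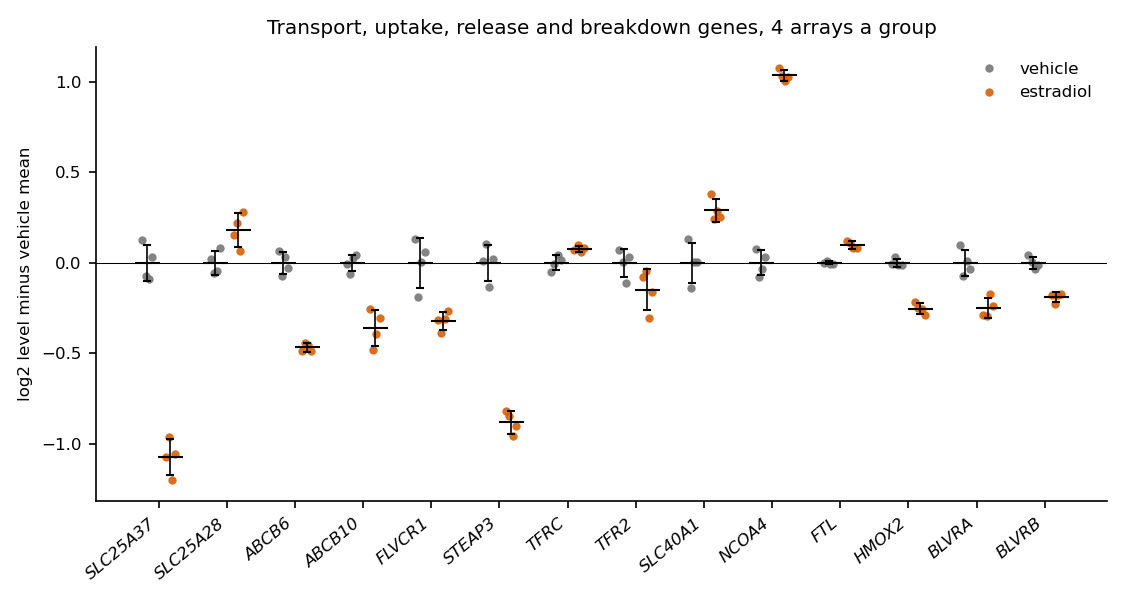
Log2 level minus the vehicle mean of the gene (vertical axis) for 14 genes of iron and porphyrin transport, uptake, release, storage and haem breakdown, grey points for the 4 vehicle arrays and orange points for the 4 estradiol arrays, with the mean and SD of each group in black. SLC25A37 and STEAP3 lie near −1.07 and −0.88 with estradiol and NCOA4 near 1.03, while TFRC, FTL, TFR2 and SLC25A28 were not called.

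The iron-responsive elements of ALAS2 and FTL are shown because ACO1 acts through them on translation, a step that RNA levels do not report. The lines give 30 bases at chrX:55030943-55030972 on the minus strand for ALAS2 and at chr19:48965329-48965358 on the plus strand for FTL (RefSeq, GRCh38.p14). Capitals mark the bulged C and the loop CAGTGN.
ALAS2: tcattcgttCgtcctCAGTGCagggcaaca
FTL: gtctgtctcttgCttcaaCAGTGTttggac
The iron-responsive element pattern, searched on the strand of the gene and from the start on, was present in these 2 of the 37 windows and in 1.67% of the table. SLC40A1, TFRC and SLC11A2 are also known to carry such elements, outside these windows. Of these 5 genes, grouped after their values had been seen, SLC40A1 alone was called, against 17.9% of all genes. EPAS1, from the list of regulators described later, also carries such an element and was called higher (2.90 ± 0.06, limma adjusted p = 2.49e-08). Its change was 1.30 with the mean of its probe sets, and it is not counted among the 5.

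Of the iron-sulphur cluster genes 1 of 3 was called (33.3%, against 17.9% of all genes). GLRX5, a mitochondrial glutaredoxin that hands clusters on, was 11.42 ± 0.03 (SD, n = 4) with estradiol and 11.58 ± 0.05 with vehicle. Its change of −0.15 ± 0.04 (limma adjusted p = 0.0337) was lost without any 1 array other than vehicle replicate 2 (adjusted p from 0.0580 to 0.0981) and with median centring (0.210). The scaffold ISCU differed by 0.05 (95% interval −0.05 to 0.14) and the sulphur donor NFS1 by 0.02 (−0.13 to 0.17).

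The enzymes of haem breakdown had 3 falls among 4 genes (75%, against 9.60% of all genes). HMOX2, the constitutive haem oxygenase, read 8.62, 8.58, 8.58 and 8.55 with estradiol and 8.83, 8.87, 8.82 and 8.82 with vehicle. Both groups were tight and apart, and HMOX2 fell 1.19-fold (−0.25 ± 0.04, limma adjusted p = 0.00157), with both probe sets called lower. HMOX1, the inducible oxygenase, was 4.51, 4.43, 4.58 and 4.33 with estradiol and 4.37, 4.80, 4.71 and 4.53 with vehicle. The HMOX1 groups overlapped (−0.14, 95% interval −0.36 to 0.08, limma adjusted p = 0.423), and its levels lay below the array medians.

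The biliverdin reductases, which act after haem oxygenase, were both called. BLVRA read 9.29, 9.29, 9.41 and 9.34 with estradiol and 9.68, 9.51, 9.59 and 9.55 with vehicle. BLVRB read 11.56, 11.51, 11.56 and 11.57 with estradiol and 11.78, 11.74, 11.70 and 11.73 with vehicle. In both all estradiol values were lower, with changes of −0.25 ± 0.05 (limma adjusted p = 0.00905) and −0.19 ± 0.04 (0.00892). The BLVRB call was lost with median centring (adjusted p = 0.0894), and 3 of the 5 probe sets of BLVRA were called lower. With the BLVRA probe set of the largest SD, a dim one, the change was −0.39 and the call was lost (adjusted p = 0.173).

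All probe sets of a gene, the one that stands for it included, were counted as a check on the same arrays, not on new samples. Of the 34 genes 22 had several probe sets. In 3 of them, UROD, STEAP3 and HMOX2, every probe set was called lower. In 8 others, counting FECH, the gene was called while at least 1 probe set was not, and in 0 was a probe set called in the direction opposite to the gene.

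**Figure D4:**
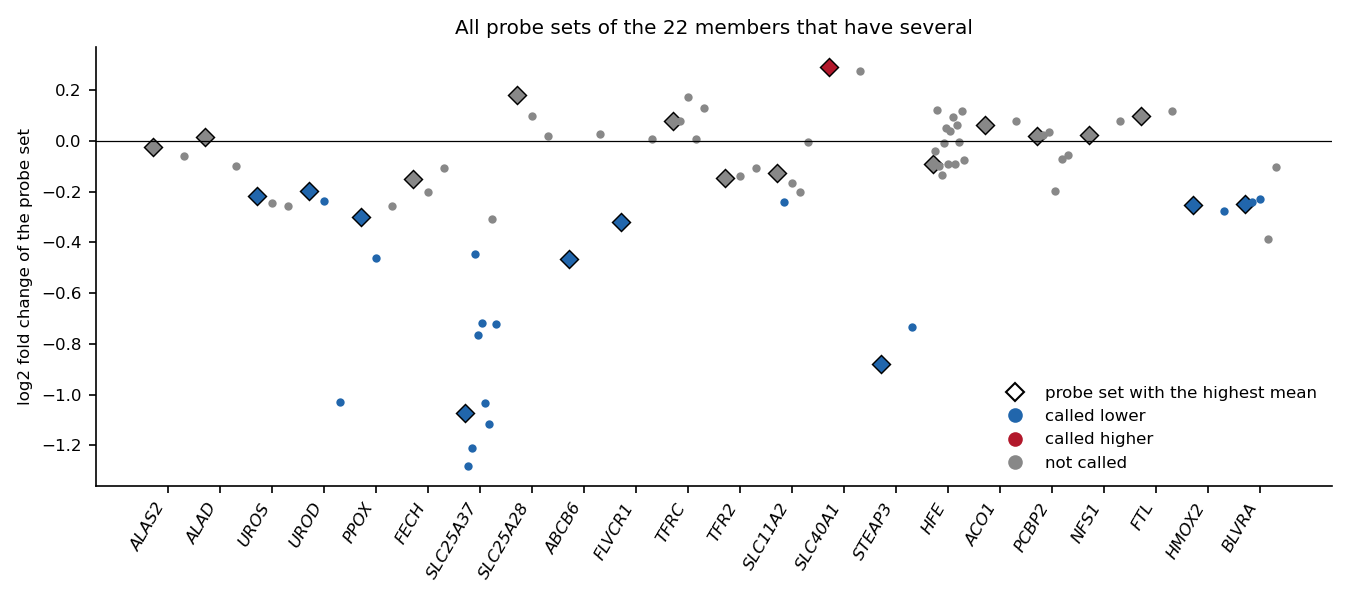
Log2 fold change of every probe set (vertical axis) of the 22 genes with several, ordered within a gene from the highest to the lowest mean level, with a diamond for the probe set that stands for the gene and colours for calls adjusted over all 54675 probe sets. The probe sets of SLC25A37 run from −1.28 to −0.31 and those of UROD from −1.03 to −0.20, while ABCB6 and FLVCR1 each have 1 probe set near 0.

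Of 57 other genes of haem and iron metabolism in a separate list 48 were measured. Among these 6 rose (12.5%, against 8.29% of all genes), 6 fell (12.5%, against 9.60%) and 36 were not called. So 25% were called, against 17.9% of all genes, and the median change of the 48 was −0.01. Among all genes with a mean log2 level of at least 5 the called share was 32.0%. The list was not counted under that filter, so 25% cannot be read as more calls than in genes of like brightness. The largest change was at ABCG2, an exporter that also carries porphyrins, at −0.82 ± 0.15 (limma adjusted p = 0.00454), but its estradiol mean of 4.34 lay below the array medians. SLC39A14 and SLC39A8, metal carriers that take up iron not bound to transferrin, fell by 0.67 ± 0.05 (limma adjusted p = 2.26e-05) and 0.48 ± 0.05 (0.000254). With the mean of their probe sets the changes were −0.38 for both. HP, haptoglobin, rose by 0.60 ± 0.12 (limma adjusted p = 0.00649) on its only probe set. Its vehicle mean of 5.00 lay below the medians of the vehicle arrays. FBXL5, which marks IREB2 for degradation, rose by 0.33 ± 0.06 (limma adjusted p = 0.00545). TF, transferrin, fell by 0.30 ± 0.06 (0.00597), a call lost with the mean of its 4 probe sets (−0.12, adjusted p = 0.0559). Among 18 measured genes of iron-sulphur cluster assembly in that list 2 rose, 1 fell and 15 were not called. The called share there, 16.7%, was near the 17.9% of all genes. Globin genes had 3 falls (42.9%) and 0 rises among 7 measured, with a median of −0.16. Red cell membrane genes had 12 falls (57.1%) and 2 rises (9.52%) among 21, with a median of −0.23. Of all genes 9.60% fell and 8.29% rose. How the lists differ was not tested.

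Of 11 regulators with known links to these genes 4 fell, 4 rose and 3 were not called. So 72.7% were called, against 17.9% of all genes, in a list chosen with earlier results known. GATA1 fell by 0.89 ± 0.04 (limma adjusted p = 7.38e-07), KLF1, which drives erythroid genes with it, by 0.71 ± 0.04 (2.57e-06) and MYC by 1.19 ± 0.04 (1.69e-07). NFE2, an erythroid and megakaryocytic factor, rose by 0.86 ± 0.04 (limma adjusted p = 1.99e-06). NFE2L2, which activates antioxidant and ferritin genes, rose by 1.03 ± 0.07 (8.29e-06), or 0.64 with the mean of its probe sets. KEAP1, which marks NFE2L2 for degradation, the haem-sensing repressor BACH1 and the erythroid factor TAL1 were not called. EPAS1, whose messenger carries an iron-responsive element, rose by 2.90 ± 0.06 (limma adjusted p = 2.49e-08), or 1.30 with the mean of its probe sets. The smallest called changes were those of GATA2, a progenitor factor (−0.22 ± 0.06, limma adjusted p = 0.0245), and HIF1A, a hypoxia factor (0.19 ± 0.05, 0.0427). GATA2 lost its call in 10 of 20 settings and HIF1A in 11, median centring and the replicate block among them. Whether any of these regulators acted on the genes above was not tested.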

How the data were processed

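The log2 values in the deposited table come from RMA, run by the authors according to the submitters' processing notes; its version, the chip definition and the build are not given there. RMA corrects background, equalizes the distributions of the arrays and summarizes probes. It can therefore mask a shift common to the majority of genes and shrink changes at low signal. Values ran from 1.92 to 14.39. Groups and replicate numbers came from the titles, which call the samples biological replicates. Nothing says that they are separate cultures, so p-values reflect only how these samples spread, which may be technical.

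Of 54675 probe sets 41097 had 1 gene symbol in the platform annotation, 1801 had several and 11777 had none listed. Only the first were named. Each of 19775 genes was represented by its brightest probe set, judged by the mean of all 8 arrays. Estradiol was compared with vehicle, two-sided, with limma 3.58.1 in R 4.3.3 (lmFit and eBayes) over all genes without a filter or block. SEs and 95% intervals are the moderated ones of limma. The fit was tested on simulated data. It recovered 20% of 50 changes of 0.25 log2, 84% of those of 0.5, 96% of those of 1 and 100% of those of 2. In that simulation 160 genes were called, against 3538 in the data, so these shares may not carry over. Array values are given for called members that changed by at least 0.2 and for 10 members fixed by name, of which FTH1 was not measured. Of the other list the 6 largest called changes are named. Related pairs were compared by exact permutation with scipy 1.17.1. Members and lists were chosen with earlier results of these data known. The replicate numbers did not pair the arrays: deviations of same-numbered arrays correlated at −0.21 to 0.11. Figures were drawn with matplotlib 3.10.9.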

Additional observations from a re-analysis of the deposited data

Results flagged for a closer look

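In 7 of 102 groups of 4 arrays (51 named genes) 1 array lay far from the other 3, where about 1 in 20 groups would by chance. In the estradiol group these were ACO1 at 8.19 in replicate 4 (the others 8.09 to 8.11), NFS1 at 8.10 in replicate 4 (8.24 to 8.25), BLVRB at 11.51 in replicate 2 (11.56 to 11.57) and NFE2 at 10.94 in replicate 2 (10.85 to 10.86). In the vehicle group they were HMOX2 at 8.87 in replicate 2 (8.82 to 8.83), GATA2 at 8.69 in replicate 2 (8.87 to 8.90) and HP at 5.24 in replicate 3 (4.89 to 4.93). BLVRB, NFE2, HMOX2 and HP kept their calls without any 1 array, and ACO1 and NFS1 were not called without any. GATA2, a progenitor factor, was called lower (−0.22 ± 0.06, limma adjusted p = 0.0245).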

How the results depend on the processing

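Of the 19 called genes 8 kept their call in all 20 settings tried (CPOX, PPOX, SLC25A37, ABCB6, ABCB10, STEAP3, NCOA4 and HMOX2), and 0 of the 34 reversed. Of the 15 not called, 12 stayed so in every setting that tested them (18 settings for HMOX1, which both filters on dim genes leave out). Falls numbered 10 with median centring, against 16. Rises numbered 5 with either filter on dim genes, which tests fewer genes, 6 with a variance trend and a robust fit, and 1 at adjusted p below 0.01, where all calls numbered 2179 against 3538. The causes were not tested. Without 1 array falls numbered 14 to 16, rises 3 to 4, all calls 2732 to 3551, and the median of the 34 ran from −0.16 to −0.12. With the replicate number as a block there were 14 falls and 3 rises, with FECH and GLRX5 lost, and 2598 calls. The numbers are shared by name and did not pair the arrays. Adjusting over every probe set, added after seeing the data, lost the same genes. With the probe set of the largest SD the calls of UROS, FECH, SLC40A1, GLRX5 and BLVRA were lost. GATA2 lost its call in 10 settings, among them 7 that leave out 1 array. Levels below the array medians, such as HMOX1, limit what dim genes can show.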
